A study of Rattus norvegicus with 12 samples.

Results

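Genes whose mRNA was higher in OC1 cells after either of 2 siRNAs against Bcl-2 were examined across all libraries. They numbered 58 of the 23978 genes in the deposited table. The genes were chosen by their measured values: a mean of 10 CPM or more (CPM is a gene's count divided by the library's total, times 1000000), a log2 ratio of mean CPM to control of 0.3 or more with each siRNA, and every library of both siRNAs above every control library. Their rise against control is therefore what chose them, and it is described here, not tested.

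OC1 is a cultured cell line that the labels assign to the rat and to the sensory epithelium of the cochlea. A cochlear line of similar name, HEI-OC1, is from the mouse, and whether it is the line used cannot be told from the labels. If it were, the counts, made on a rat genome, would be of mouse reads that matched it. The species was not tested. Cells were grown in medium with serum and received, by lipid transfection, a negative control siRNA or siRNA 1423 or siRNA 1928, both directed at Bcl-2, with 4 libraries per group. The genotype tag is WT for the control cells and knockdown for the others, and the treatment tag names a plasmid in all 3 groups, where the protocol names siRNA. The interval between transfection and harvest is not given in the sources used here, and all libraries come from the same cell line. Replicates carry the letters A to D. Nothing in the labels says that they were separate cultures. The p-values therefore rest on the spread among these samples alone, and that spread may be technical. Library totals lay between 15671546 and 23247593 expected counts (estimated read counts). The lowest value of any of the 58 genes in a library was 124 expected counts, and standard errors of the log2 fold changes against control ran from 0.029 to 0.11.

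BCL-2 is the founding member of a protein family that governs apoptosis. It sits in the outer mitochondrial membrane and the endoplasmic reticulum, where it binds and holds back the pro-apoptotic members of the family. An siRNA guides the silencing complex to transcripts that match its sequence and lowers them, and it can also lower other transcripts that match only its seed, the short stretch near its 5′ end. For this reason studies often use more than one siRNA against a target and look at the responses they have in common.

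The deposited table lists Ensembl gene IDs without symbols. The rat gene table used here, of assembly GRCr8, holds no Ensembl IDs, so no symbol, function, promoter or position could be attached to these genes, and no sequence is shown. The level of Bcl2 and the marker genes of the cochlear epithelium were not analysed here. In what follows the genes are told apart by rank, and the IDs of 2 of them are given.

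At a mean of 10 CPM or more, 9567 genes were present. Of these, 137 reached a log2 ratio of 0.3 with siRNA 1423, 953 reached it with siRNA 1928, and 67 reached it with both. The condition that no library overlap with control then removed 9 genes, 3 of them for siRNA 1423 alone, 1 for siRNA 1928 alone and 5 for both, which left the 58. The same rule with its signs turned gave 98 genes lower with both siRNAs. Both comparisons use the same control libraries.

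**Figure D1:**
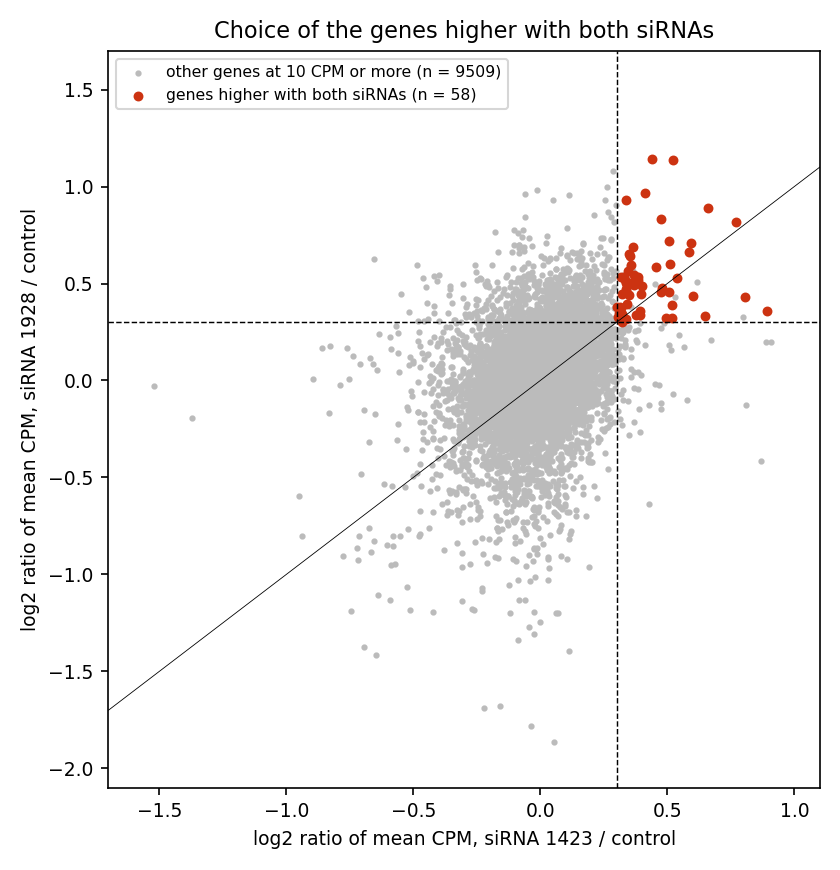
Each point is a gene at 10 CPM or more, with the log2 ratio of mean CPM to control for siRNA 1423 on the horizontal axis and for siRNA 1928 on the vertical axis. Dashed lines mark 0.3 and the solid line marks equal ratios; the 58 chosen genes (red) lie above both dashed lines by construction, and 41 of them lie above the line of equal ratios, against 31 with TMM scaling (trimmed means of M values).

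The limits of the rule cut through a continuous range. The 3 genes just inside the size limit had smaller ratios of 0.3071, 0.3022 and 0.3016, and the 3 nearest genes outside it, which met the other conditions, had 0.2976, 0.2974 and 0.297. At the limit on level the lowest genes inside had means of 10.17, 10.27 and 10.48 CPM, and the nearest outside had 9.989, 8.526 and 8.414 CPM. Where the line was drawn thus set how many genes were counted, with a smooth change of size across it.

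The rises were modest. The median log2 ratio over the 58 genes was 0.37 with siRNA 1423 (range 0.30 to 0.89) and 0.47 with siRNA 1928 (range 0.30 to 1.14). Over all 9567 genes at 10 CPM or more the medians were -0.0027 and 0.045. With TMM scaling the medians of the 58 genes were 0.38 and 0.41, and those of all tested genes -0.0012 and 0.0034. With siRNA 1423, 8 genes reached 1.5-fold and 0 reached 2-fold, and with siRNA 1928 these numbers were 16 and 2. Only 4 genes reached 1.5-fold with both siRNAs, and 18 reached a log2 ratio of 0.4 with both. All 58 passed edgeR's quasi-likelihood test at an adjusted p under 0.05 as higher in both contrasts, where 11.3% of 12731 tested genes were called higher with siRNA 1423 and 21.8% with siRNA 1928. Complete separation upward from control was seen in 10.6% and 26.5% of tested genes. Since the rule used these contrasts, nothing is read from the members' counts.

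**Figure D2:**
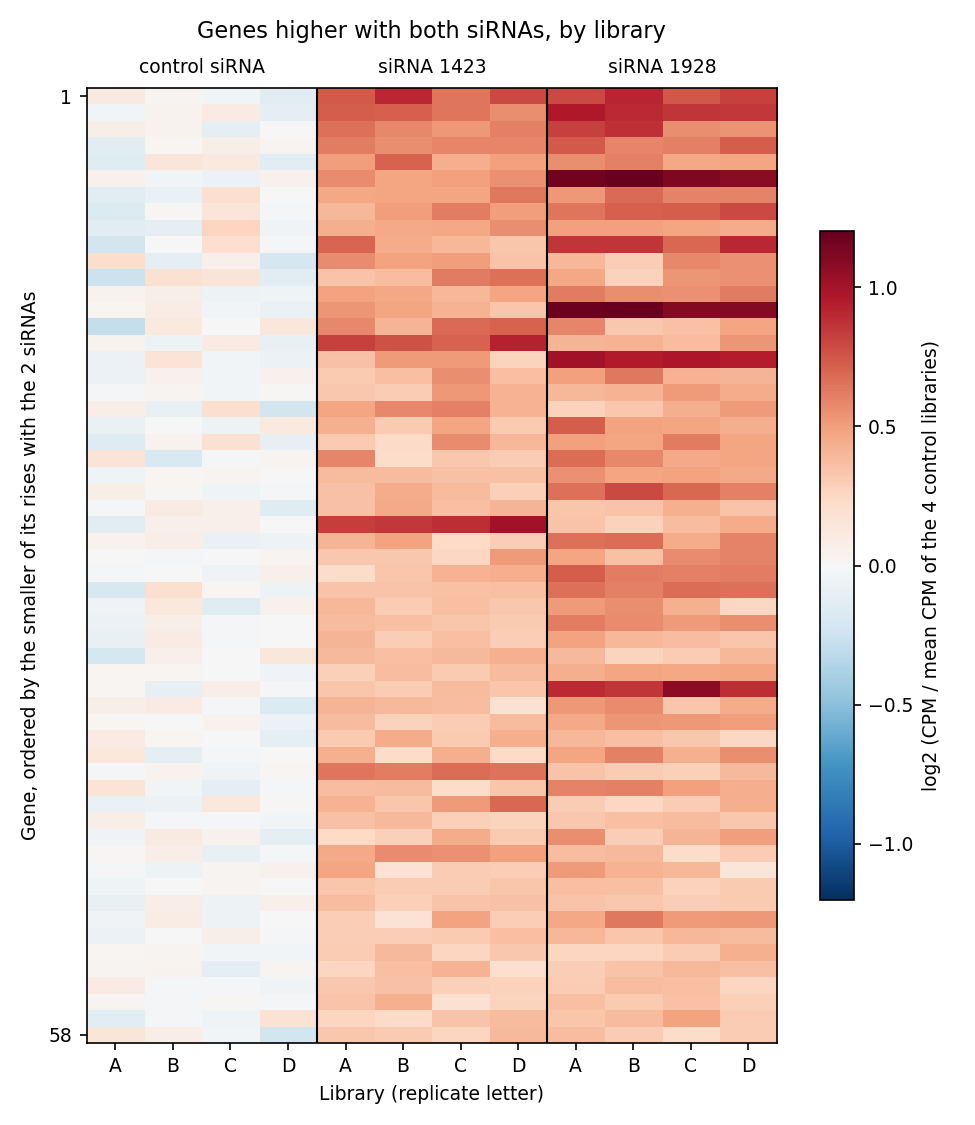
Rows are the 58 genes, ordered by the smaller of their rises, and columns are the 12 libraries by group and replicate letter. Color gives the log2 ratio of CPM to the mean of the 4 control libraries; each row is redder in all 8 libraries of the siRNAs than in its control libraries, and a few rows are much darker with one siRNA than with the other.

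In sum over the 58 genes, the control libraries held 3445, 3583, 3516 and 3466 CPM (replicates A to D). The libraries of siRNA 1423 held 4612, 4609, 4589 and 4600 CPM, and those of siRNA 1928 held 4955, 4883, 4830 and 4865 CPM. By column totals the 3 groups did not overlap, and the order was control, siRNA 1423, siRNA 1928. The rule itself placed control lowest, so only the step between the siRNAs was free to vary. The group means were 3503 ± 61.5, 4602 ± 10.4 and 4883 ± 52.5 CPM (SD, n = 4 each). Without the most abundant gene they were 2986 ± 43.8, 3945 ± 8.27 and 4119 ± 31.5 CPM. The step between the siRNAs depended on scaling. On TMM-scaled CPM the control libraries summed to between 3464 and 3631 CPM, and the siRNAs to 4676 ± 20.4 (siRNA 1423) and 4750 ± 32.9 CPM (siRNA 1928; SD, n = 4 each), still without overlap. Without the most abundant gene the siRNAs then overlapped, at 4008 ± 25.9 and 4007 ± 16.8 CPM, and both lay above the control libraries at 3021 ± 51.7 CPM (SD, n = 4 each). The 6 most abundant genes made up 50.9% of the summed level in the control group.

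Most of the genes were of moderate or low abundance. The mean level over all 12 libraries ran from 10.2 to 646 CPM with a median of 36.2, against 49.8 for all genes at 10 CPM or more. Cut into 4 equal classes by level, with limits at 25.6, 49.8 and 101.5 CPM, the latter held 24 of the 58 genes in the lowest class, then 16, 10 and 8 in the highest. Variation between replicates was slightly wider than usual for this range. The median coefficient of variation was 5.98% (control), 5.52% (siRNA 1423) and 4.66% (siRNA 1928), against 4.44%, 4.25% and 4.17% over all genes at 10 CPM or more. Scarcer genes vary more in counts, and the part of level in this difference was not tested.

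Some of the values were not whole numbers, which a program that shares reads among similar genes can give. Values differed from a whole number by more than 1e-06 in over 6 libraries for 18 of the 58 genes, and for 50.9% of all genes at 10 CPM or more. In 6 of the genes (10.3%) the values were fractional in all 12 libraries, against 20.7% of all genes at this level. Of these 6, 5 were at 100 CPM or more and included the most abundant gene. At least 1 fractional value was present in 57 of the 58 genes. How reads were shared is not given, and the error this leaves in the levels was not measured.

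The gene with the largest smaller rise was ENSRNOG00000021201. Its control libraries held 61.8, 58.6, 56.0 and 52.6 CPM, those of siRNA 1423 held 95.7, 107, 89.3 and 98.9 CPM, and those of siRNA 1928 held 99.3, 108, 95.7 and 101 CPM. The libraries of both siRNAs were mixed in order and lay well above the highest control. The log2 fold change was 0.77 (SE 0.0524) with siRNA 1423 and 0.76 (SE 0.0521) with siRNA 1928, the largest value that both siRNAs reached in any of the 58 genes. The difference between the siRNAs was -0.015 (95% interval -0.12 to 0.088, adjusted p = 0.832 by edgeR).

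The second was ENSRNOG00000028344. It was measured at 32.5, 34.1, 35.5 and 30.5 CPM in the control libraries, at 54.8, 54.4, 51.8 and 48.6 CPM with siRNA 1423 and at 64.5, 61.5, 60.1 and 59.6 CPM with siRNA 1928. Here the 3 groups formed separate steps. Log2 fold changes were 0.66 (SE 0.0506) and 0.83 (SE 0.0497), and siRNA 1928 stood higher than siRNA 1423 by 0.17 (95% interval 0.070 to 0.27, adjusted p = 0.00609 by edgeR). With replicates A and B alone this difference was 0.14 and no longer passed the test (adjusted p = 0.0671).

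Next by their smaller rise came 2 genes of unlike level. One, a scarce gene, had means of 13.8 ± 0.776 CPM (control), 20.8 ± 0.862 (siRNA 1423) and 22.5 ± 2.71 CPM (siRNA 1928; SD, n = 4 each). The other had 60.8 ± 3.65, 91.3 ± 1.53 and 96.2 ± 5.24 CPM (SD, n = 4 each). Neither difference between the siRNAs passed the test, at 0.050 (95% interval -0.10 to 0.20) and 0.013 (95% interval -0.077 to 0.10) on the log2 scale. The interval of the scarce gene includes the difference of 0.17 seen in ENSRNOG00000028344.

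The most abundant gene ranked 33 by its smaller rise. Its level was 491, 544, 513 and 520 CPM in the control libraries, 671, 663, 652 and 644 CPM with siRNA 1423 and 791, 767, 738 and 762 CPM with siRNA 1928. The 3 groups were again separate steps, with log2 fold changes of 0.35 (SE 0.0308) and 0.51 (SE 0.0308). The second most abundant gene moved by 0.32 (SE 0.0322) with siRNA 1423 and by 0.32 (SE 0.0321) with siRNA 1928. Its mean level was 370 ± 14.8 CPM (control), 461 ± 10.1 and 481 ± 11.1 CPM (SD, n = 4 each). Its difference between the siRNAs was near 0, with a 95% interval of -0.067 to 0.066. The next 4 by level, at means of 308, 276, 259 and 228 CPM, rose by 0.32 to 0.37 with siRNA 1423 and by 0.27 to 0.44 with siRNA 1928, and none of these 4 differed between the siRNAs by the test.

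**Figure D3:**
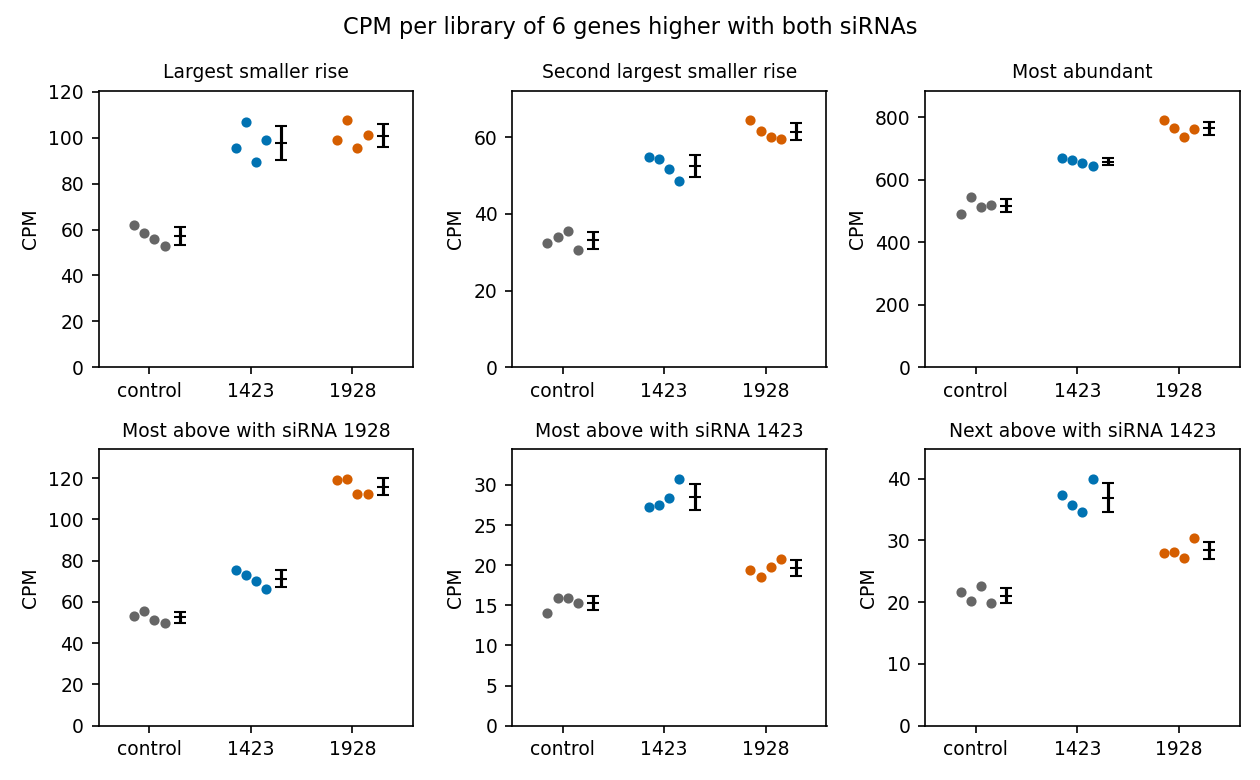
CPM per library (points, replicates A to D from left to right) with the mean and SD of the 4 libraries (bars) for 6 genes: the first and second by smaller rise, the most abundant, the gene with the largest excess of siRNA 1928 and the 2 with the largest excess of siRNA 1423. The control libraries are lowest in each panel by construction. The order of the siRNAs differs between genes. Means were 116 (siRNA 1928) against 71.3 CPM (siRNA 1423) at the largest excess of siRNA 1928. At the largest excess of siRNA 1423 they were 19.6 (siRNA 1928) against 28.5 CPM (siRNA 1423).

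Setting siRNA 1928 directly against siRNA 1423 shows whether the genes rose by different amounts. The rule did not use this contrast itself, but the contrast is made of the rises with each siRNA, in the same libraries. The rule put a floor of 0.3 under both rises. Genes that rose with a single siRNA, or moved in opposite directions, were thereby left out of the 58 but not of all tested genes. The shares and the median over all tested genes are given for scale, and nothing is read from their distance to the 58. By edgeR, 12 genes stood higher and 6 lower with siRNA 1928 (20.7% and 10.3% of the 58), where 21.3% and 23.0% of all tested genes were called in these directions. In either direction 18 of the 58 were called, beside 44.3% of all tested genes and 50.8% of those at 10 CPM or more. The median absolute log2 difference was 0.088 over the 58 genes and 0.14 over all tested genes. On TMM-scaled CPM, 11 of the genes had every library of siRNA 1928 above every library of siRNA 1423, and 8 had the reverse, where all tested genes gave 19.1% and 20.8%. The balance depended on scaling: with library size alone the 12 and 6 became 20 and 4, beside 31.6% and 16.0% of all tested genes, and the median over all tested genes moved from 0.0036 to 0.066. Of the 18 genes that differed, 66.7% were higher with siRNA 1928, against 83.3% of 24 with library size alone. Over all tested genes the calls were 2714 higher and 2931 lower with TMM, and 4024 higher and 2038 lower with library size alone.

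**Figure D4:**
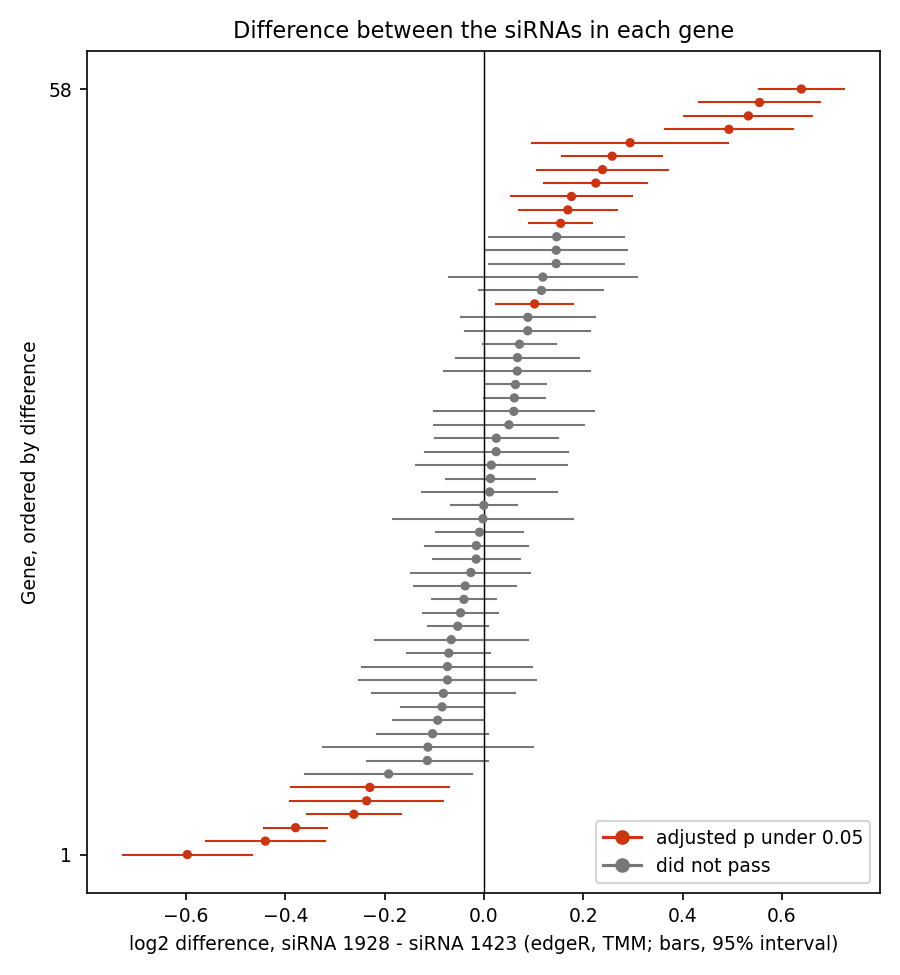
The log2 difference of siRNA 1928 minus siRNA 1423 (points) with its 95% interval (bars) in each of the 58 genes, ordered by size. In red are the 18 genes that passed the test, 12 to the right of 0 and 6 to the left; the extremes are 0.64 and -0.60.

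The 12 genes that stood higher with siRNA 1928 rose by a median of 0.70 on the log2 scale with it and 0.37 with siRNA 1423. They were led by a gene at 53.3, 55.8, 51.3 and 49.7 CPM in the control libraries, 75.7, 73.1, 70.3 and 66.2 CPM with siRNA 1423 and 119, 120, 113 and 112 CPM with siRNA 1928. All 3 groups were far apart, and the difference between the siRNAs was 0.64 (95% interval 0.55 to 0.72, adjusted p = 2.74e-11 by edgeR). This was one of the 6 genes with fractional values in every library. The next gene was scarcer, with means of 11.1 ± 0.454 CPM (control), 15.9 ± 0.458 (siRNA 1423) and 24.5 ± 0.755 CPM (siRNA 1928; SD, n = 4 each), and differed by 0.55 (95% interval 0.43 to 0.68). These were the 2 genes past 2-fold with siRNA 1928. The next 3 differed by 0.53, 0.49 and 0.29, and the other 7 by 0.10 to 0.26.

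The 6 genes that stood lower with siRNA 1928 rose by a median of 0.64 on the log2 scale with siRNA 1423 but 0.29 with siRNA 1928. The largest excess of siRNA 1423 was in a gene at 14.1, 16.0, 16.0 and 15.3 CPM in the control libraries, 27.2, 27.5, 28.3 and 30.8 CPM with siRNA 1423 and 19.4, 18.5, 19.8 and 20.8 CPM with siRNA 1928. The lowest library of siRNA 1423 lay above the highest of siRNA 1928, and the latter group lay only a little above control. The difference was -0.60 (95% interval -0.73 to -0.47, adjusted p = 7.06e-08 by edgeR), and the rise with siRNA 1423 was the largest of the 58 at 0.90 (SE 0.0645). The next gene had means of 21.1 ± 1.26 CPM (control), 36.9 ± 2.36 (siRNA 1423) and 28.4 ± 1.35 CPM (siRNA 1928; SD, n = 4 each), a difference of -0.44 (95% interval -0.56 to -0.32). Another was more abundant, at 163 ± 4.37, 255 ± 3.94 and 205 ± 6.20 CPM (SD, n = 4 each), and differed by -0.38 (95% interval -0.44 to -0.32). The other 3 differed by -0.26 to -0.23.

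In the other 40 genes no difference between the siRNAs passed the test, with estimates from -0.19 to 0.15 and adjusted p-values of 0.0586 to 0.996 by edgeR. The 95% interval lay within 0.3 on the log2 scale either way in 37 of them and within 0.2 in 22, so a difference as large as the rule's own limit lay outside the interval for most but not for each. The median standard error of the difference was 0.060 in these genes and 0.058 in the 18 that passed, at median levels of 34.4 and 36.9 CPM.

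A difference of replicates A and B from C and D was fitted as a term beside the group. This division was picked because an earlier look at these libraries had found them apart along it, so the share over all tested genes is that of a chosen split. Of the 58, 4 differed between the letters by edgeR (6.90%), 3 of them higher in A and B, beside 8.76% of all tested genes. The median absolute difference was 0.053 on the log2 scale, and also 0.053 over all tested genes.

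The same rule was also applied to 2 letters only, which leaves the other 2 as libraries that took no part in the choice. On replicates A and B it gave 81 genes, 49 of them among the 58, with median log2 ratios of 0.36 with siRNA 1423 and 0.49 with siRNA 1928. In replicates C and D the same 81 genes had medians of 0.34 and 0.43. By edgeR on C and D alone, 58 of the 81 were higher with siRNA 1423 (71.6%) and 68 with siRNA 1928 (84.0%), and 54 were higher with both. Of all tested genes at 10 CPM or more in A and B, 11.2% and 20.4% were called higher there. Above 0 were 76 and 81 of the 81 ratios.

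In the reverse direction, replicates C and D gave 90 genes, 50 of them among the 58. Their median log2 ratios fell from 0.37 and 0.49 in C and D to 0.31 and 0.42 in A and B. By edgeR on A and B alone, 57 of the 90 were higher with siRNA 1423 (63.3%), 70 with siRNA 1928 (77.8%) and 53 with both, beside 7.52% and 18.3% of all tested genes at 10 CPM or more in C and D. Above 0 were 85 and 89 ratios. Most of the 81 and of the 90 genes were thus higher with each siRNA also in the libraries that had not chosen them, by a smaller median. Not all of them passed the test there. These sets held 49 and 50 of the 58, and the 58 themselves were chosen on all 12 libraries. Both siRNAs were measured against the same control libraries in each pair of letters. Nothing in the labels says that the letters were separate cultures, so the other libraries may not be independent of those that chose. This use of the letters was added after the data were seen.

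**Figure D5:**
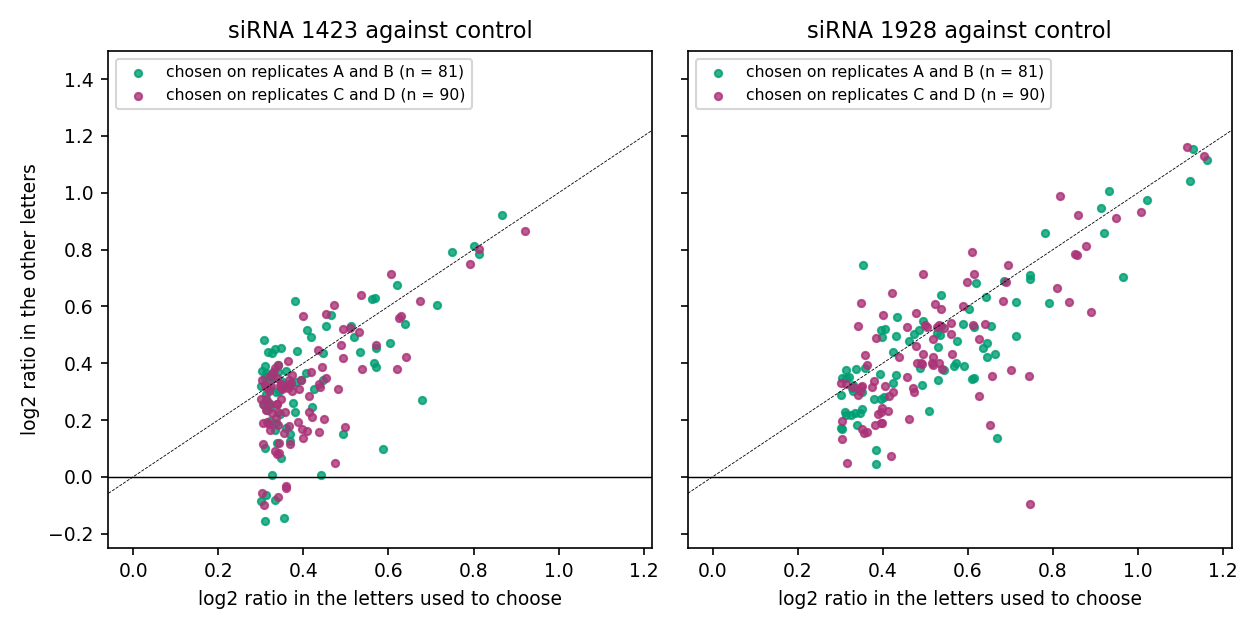
Genes chosen by the rule on replicates A and B (green, 81 genes) or on C and D (purple, 90 genes), with the log2 ratio to control in the letters that chose them on the horizontal axis and in the other letters on the vertical axis; the left panel is siRNA 1423 and the right panel siRNA 1928. The dashed line marks equal ratios, and most points lie above 0, with 76 and 85 genes above it in the left panel and 81 and 89 in the right.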

How the data were processed

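The deposited values are expected counts per Ensembl gene ID, one column per library, as the authors' table gives them (71.3% whole to within 1e-06; 0 columns of other samples). Build mRatBN7.2 and the tools DESeq2 1.24.0, fastp 0.21.0 and bcl2fastq 2.20 are named in the submitters' processing notes; the aligner, counter and annotation are not stated in the sources at hand. Libraries were strand-specific per the labels' protocols; whether counting used strand is not stated.

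CPM for choosing and describing genes used column totals. For tests, expected counts were rounded, filtered with filterByExpr (minimum count 10, total 15), which left 12731 genes, scaled by TMM (trimmed means of M values) and fitted with edgeR 4.0.16 (R 4.3.3), 1 mean per group over 12 libraries, with Benjamini-Hochberg adjustment over all tested genes. Fold changes and intervals come from this fit, with standard errors derived from the F statistic. The fit was tried on simulated data with the same changes under both siRNAs and no effect of the letters. No difference between the siRNAs was simulated, and nothing is read from that trial here. Alternatives used DESeq2 1.42.0, limma 3.58.1 (voom), other scaling and filters, fewer libraries and a replicate block.

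The genes, lists and rules were chosen with earlier results of these data known. The genes described were taken in order of smaller rise, level and difference between the siRNAs (at most 12, 6 and 5 either way), and the text gives fewer because only 2 IDs are printed. The 27 gene lists and the cell type markers prepared could not be assigned to IDs and were not used here. The use of 2 letters to choose and 2 to measure, and the test of the letters, were added after the data were seen.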

Additional observations from a re-analysis of the deposited data

Results flagged for a closer look

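The results that stood out did so because the rise was of unequal size with the siRNAs, by edgeR's test of the difference itself. This held for 18 of the 58 genes. The shares called among all tested genes (44.3%) and those at 10 CPM or more (50.8%) are given for scale only. The rule left out genes that rose with a single siRNA or moved in opposite directions. Whether differences are rarer among the 58 for any other reason was therefore not tested. Among the 8 genes followed under every alternative, siRNA 1928 exceeded siRNA 1423 by 0.64 and 0.55 on the log2 scale in the 2 genes past 2-fold with siRNA 1928, by 0.17 in ENSRNOG00000028344 and by 0.15 in the most abundant gene. It fell short by -0.60 and -0.44 in the 2 genes with the largest excess of siRNA 1423. No library lay far from the other 3 of its group in any of 27 groups of values searched (the summed level and the 8 genes in each of 3 groups), where chance alone picks out about 1 in 20.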

How the results depend on the processing

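The number of genes chosen moved most with the size limit: a limit of 0.25 gave 110 genes and one of 0.4 gave 18. Replicates A and B alone gave 81 and replicates C and D alone 90. With TMM or with DESeq2 size factors in the rule 47 genes were chosen, 45 of them among the 58. Limits of 5 and 20 CPM gave 71 and 44, no condition on overlap gave 67, and leaving out 1 library gave 56 to 81. For the difference between the siRNAs, library size alone raised the 12 genes higher with siRNA 1928 to 20, with all 12 among them, and the 6 lower became 4. Among all tested genes, replicates A and B alone gave 748 higher with siRNA 1423, against 1436. For the genes chosen on 2 letters, TMM-scaled CPM in the rule gave 45 and 58 called in C and D of the genes it then chose, and 49 and 65 in A and B, and library size alone in the letters measured gave 58 and 71, and 56 and 75 (both chosen after seeing the data). By deviations from the group means, libraries of the same letter were only weakly alike. Their 12 correlations were all positive, 0.030 to 0.13, and 5 were over 0.1. Those of the 36 other pairs ran from -0.17 to 0.16. Of the 12 libraries, 2 correlated best with their own letter in both other groups. The main fit holds no term for the letters. With the replicate block, 13 genes were higher and 7 lower with siRNA 1928 than with siRNA 1423, so the block moved neither count by over 1.5 times. Over all tested genes the block raised those called higher than control from 1436 to 1692 with siRNA 1423. With siRNA 1928 it raised them from 2780 to 2992. Of 480 values of the 8 genes followed, 479 kept their side of the threshold, and the exception is given with ENSRNOG00000028344. The fold changes against control among these values are those that chose the genes. Some of the genes were also picked for their large difference between the siRNAs. Keeping the side was thus largely fixed by the choice. In 11 of the 480 values the sign turned, all in differences between the siRNAs near 0 that passed no test. Of these, 4 were in ENSRNOG00000021201 (up to 0.047) and 7 in the second most abundant gene (up to 0.063), both largest with library size alone. Depth limits the scarcest genes, where the standard error of the difference reached 0.10.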
